A study of Mus musculus with 12 samples.

Results

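The nuclear genes for subunits of the mitochondrial respiratory chain and ATP synthase were followed through 12 RNA-seq libraries of mouse bone-marrow-derived macrophages. Members were the genes whose symbols begin with Nduf followed by a, b, c, s or v and a number (complex I), Sdha to Sdhd (complex II), Uqcr (complex III), Cox4 to Cox8 (complex IV) or Atp5 (ATP synthase, complex V), without symbols containing "-ps", and with CPM (read counts scaled to a common library size) above 1 in at least 2 libraries. The pattern matched 89 symbols, 6 of these contained "-ps", and 5 of the other 83 were below the level filter, which left 78 members of 48440 genes in the table. They comprise 36 genes of complex I, 4 of complex II, 8 of complex III, 13 of complex IV and 17 that carry the ATP synthase name. Atp5s and Atp5sl carry that name without coding for core subunits, and Ndufa4, counted here with complex I by its symbol, codes for a protein now placed in complex IV.

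The respiratory chain passes electrons from NADH (complex I) and succinate (complex II) through complex III and cytochrome c to oxygen at complex IV, and complex V uses the proton gradient made on the way to form ATP. Most subunits come from nuclear genes, and a small core comes from mitochondrial DNA (mtDNA), so the 2 genomes supply parts of the same complexes. In macrophage biology, IL-4 is associated with sustained oxidative metabolism, and interferon-gamma (IFN-γ) together with bacterial products with a shift towards glycolysis.

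The study's libraries fall into 6 groups of 2: macrophages labelled WT or CKO, each left untreated, treated with IFN-γ at 100 U/mL or treated with IL-4 at 20 ng/mL, the cytokines for 24 h. The labels write the genotype as CKO and name neither the deleted gene nor a Cre driver, nor the strain or age of the mice, and the series title concerns the transcription factor IRF8. Libraries came from an RNA exome kit, so a gene's level also depends on how well probes capture it. The labels do not say that libraries 1 and 2 of a group are separate animals or cultures, so the tests weigh each difference against the variation among libraries, part or all of which could be technical. In bulk RNA, fewer expressing cells and less RNA per cell cannot be told apart.

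As a check on the labels, Irf8 stood at 90.9 and 91.2 CPM in untreated WT and at 293 and 248 CPM in the untreated libraries labelled CKO, a difference of 1.57 on the log2 scale (adjusted p = 1.25e-05 in edgeR, which tests count data against the spread between replicates), and it was higher in those labelled CKO under both cytokines too. Chosen response genes moved with the labelled cytokine in both genotypes, 5 of 5 for IFN-γ (Ciita, Cxcl9 and others) and 5 of 5 for IL-4 (Arg1, Retnla and others). Some also rose with the other cytokine in both genotypes, Arg1 with IFN-γ and Ciita and Irf1 with IL-4. Set directly against IL-4, IFN-γ gave 5 of 5 higher for the first list and 5 of 5 lower for the second, in both genotypes. The counts do not show less Irf8 RNA under the CKO label, so the groups are called by their labels throughout. Library totals ran from 21287725 to 32717379 counts. Macrophage markers (Adgre1, Csf1r, Cd68 and others) were all detected, with sums of 3001 to 3335 CPM in WT and 3779 to 4557 in CKO groups. Single markers went both ways (edgeR adjusted p under 0.05). Of the 8, 3 were called higher and 1 lower in untreated CKO than in untreated WT, against 8.6% and 9.37% of all genes. With IFN-γ these counts were 5 and 1, against 10.4% and 8.01%, and with IL-4 0 and 2, against 1.41% and 1.55%. Fcgr1 was lower in CKO in all 3 treatments. Neutrophil markers summed in WT to 253 to 257 CPM untreated, 129 to 138 with IFN-γ and 229 to 231 with IL-4, and in CKO to 777 to 1046, 496 to 507 and 461 to 540. Monocyte markers summed in WT to 284 to 309 CPM untreated, 147 to 189 with IFN-γ and 147 to 157 with IL-4, and in CKO to 636 to 664, 303 to 315 and 238 to 288. These sums moved with both genotype and cytokine, but a lower sum with IFN-γ did not mean that each marker fell. Of 11 tested neutrophil markers, 2 were called higher and 1 lower with IFN-γ in WT, with a median log2 fold change of 0.3. In CKO 4 and 1 were called, with a median of 0.14. The 8 monocyte markers gave 3 and 3 in WT (median -0.16) and 5 and 3 in CKO (0.98). Of all genes, 12.4% rose and 11.8% fell in WT, and 14.7% and 11.9% in CKO. Dendritic cell markers summed in WT to 1.93 to 2.59 CPM untreated, 49.7 to 58.1 with IFN-γ and 7.2 to 8.03 with IL-4. In CKO they summed to 2.02 to 3.24, 7.93 to 9.63 and 10.5 to 11.3. All 12 neutrophil and 8 monocyte markers had counts in every group. The part of neutrophils, monocytes and dendritic cells in the comparisons below, by genotype or by cytokine, was not tested. Untreated CKO library 1 stood apart, with 1.52% of counts on mitochondrially encoded genes against 2.12% to 3.25% in the other libraries, and with 0.298% on mt-Rnr2 against 0.925% to 1.54%.

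Per kilobase of exon, levels averaged over the 12 libraries ran from 1.44 CPM for Cox6a2 to 208 for Atp5a1, the α subunit of the catalytic head of ATP synthase. Close to it stood Cox8a at 203, Cox6b1 at 185 and Atp5b, the catalytic β subunit, at 172 CPM per kilobase. By complex, the median was 27.2 CPM per kilobase for complex I, 61.4 for II, 49.4 for III, 79.7 for IV and 38.6 for V. Between groups the members moved little: the 6 group means of a member spanned a median of 0.36 on the log2 scale, and 64 of 78 spanned less than 0.6. Within that narrow span, the IFN-γ-treated WT group had the highest mean for 34 members, and the untreated CKO group the lowest for 37. These counts are given without the same counts over all genes. In the IFN-γ-treated WT group, library 2 was above library 1 for 69 of the 78 members.

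**Figure D1:**
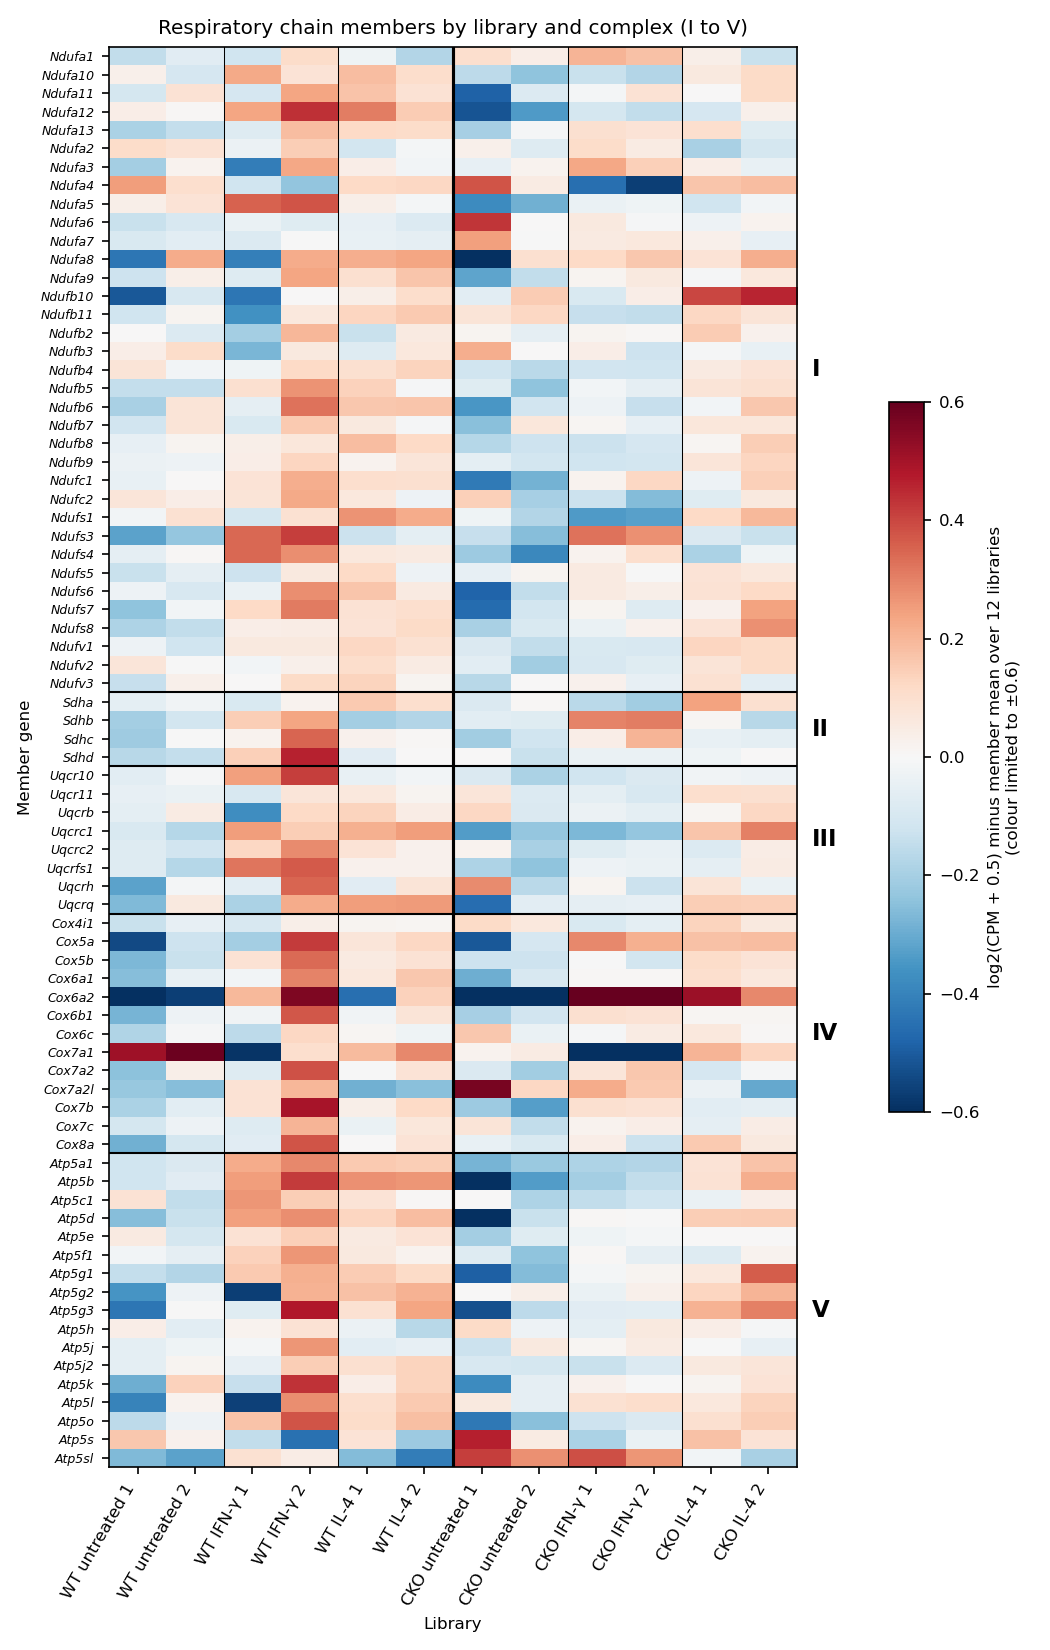
Level of the members (rows, grouped by complex I to V; 1 complex I member is not drawn) in each of the 12 libraries (columns), as log2(CPM + 0.5) minus that member's mean over all libraries, with the colour limited to 0.6 in either direction. IFN-γ-treated WT library 2 is red over most rows, Ndufa4 turns blue in the IFN-γ libraries, and several values, those of Cox6a2 and Cox7a1 among them, lie past the colour limits.

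In nuclear respiratory genes, NRF1, ETS-family factors (GABP among them) and YY1 are known regulators that bind close to the start site. RefSeq promoters of GRCm38.p6, from 250 bases before to 50 after the annotated start, were found for 63 of the 78 members. Both strands were searched. The NRF1 motif GCGCANGCG was present in 20 of these 63 (31.7%), against 7.03% of 27025 genes with a promoter. The YY1 motif AAGATGGCG was present in 7 (11.1%) against 1.64%. These 27025 genes were taken whether or not these cells express them, so the shares are not matched for expression. The ETS motif CCGGAAGT was present in 5 (7.94%) against 4.31%, and the interferon-γ-activated site TTCNNNGAA in 4 (6.35%) against 9.55%. A match is a run of letters, not a shown binding site. The promoters of 4 members that the results below return to are shown, on the strand of the gene, with motif matches in capitals. Uqcrc1 (chr9:108936398-108936697, plus strand) was the sole member called under IL-4 in both genotypes and has 3 NRF1 matches, of which 2 overlap on opposite strands. Sdhd (chr9:50603800-50604099, minus strand) had the smallest p of the members in the genotype by IFN-γ interaction and has an NRF1 match. Ndufs3 (chr2:90904672-90904971, minus strand) rose with IFN-γ in both genotypes and has an ETS match, read on the other strand. Atp5o (chr16:91931581-91931880, minus strand) holds both an interferon-γ-activated site and an NRF1 match, which do not overlap.
Uqcrc1: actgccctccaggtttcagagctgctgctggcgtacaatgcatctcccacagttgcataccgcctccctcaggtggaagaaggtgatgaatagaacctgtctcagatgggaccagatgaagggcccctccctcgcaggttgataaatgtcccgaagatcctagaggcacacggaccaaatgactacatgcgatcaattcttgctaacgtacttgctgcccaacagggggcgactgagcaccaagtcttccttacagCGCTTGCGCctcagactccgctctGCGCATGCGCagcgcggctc
Sdhd: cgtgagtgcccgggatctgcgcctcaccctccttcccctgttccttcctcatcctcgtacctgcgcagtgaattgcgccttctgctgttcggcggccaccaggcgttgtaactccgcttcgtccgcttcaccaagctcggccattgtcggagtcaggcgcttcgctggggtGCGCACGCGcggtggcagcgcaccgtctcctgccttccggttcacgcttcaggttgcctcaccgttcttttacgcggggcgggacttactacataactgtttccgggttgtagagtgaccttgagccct
Ndufs3: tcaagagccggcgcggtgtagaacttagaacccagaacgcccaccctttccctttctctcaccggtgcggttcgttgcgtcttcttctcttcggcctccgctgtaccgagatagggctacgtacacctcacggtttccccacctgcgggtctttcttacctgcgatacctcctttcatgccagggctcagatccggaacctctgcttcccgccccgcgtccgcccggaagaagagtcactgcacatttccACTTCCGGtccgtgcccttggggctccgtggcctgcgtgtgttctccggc
Atp5o: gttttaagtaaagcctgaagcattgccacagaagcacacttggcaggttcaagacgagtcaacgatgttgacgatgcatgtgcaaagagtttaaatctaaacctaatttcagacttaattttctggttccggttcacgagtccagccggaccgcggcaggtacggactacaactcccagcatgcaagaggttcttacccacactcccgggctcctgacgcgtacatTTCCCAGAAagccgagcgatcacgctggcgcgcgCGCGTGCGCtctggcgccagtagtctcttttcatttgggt

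The first question was how the chain responded to IFN-γ. In WT cells, 20 of 78 members (25.6%) rose and 2 fell, where 24.2% of all 16292 tested genes were called, 12.4% higher and 11.8% lower (edgeR quasi-likelihood test, adjusted p under 0.05). The median log2 fold change was 0.18 for the members and 0.00 for all genes, and 69 members had a positive value. Changes were small, with rises of at most 0.47 on the log2 scale apart from Ndufs3 and the scarce Cox6a2. In CKO cells, 8 members (10.3%) rose and 2 fell, against 14.7% and 11.9% of all genes (26.6% in either direction), with a member median of 0.07. Counted at an unadjusted p under 0.05, 33 members passed in WT and 19 in CKO, where 33.7% and 37.3% of all genes did.

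**Figure D2:**
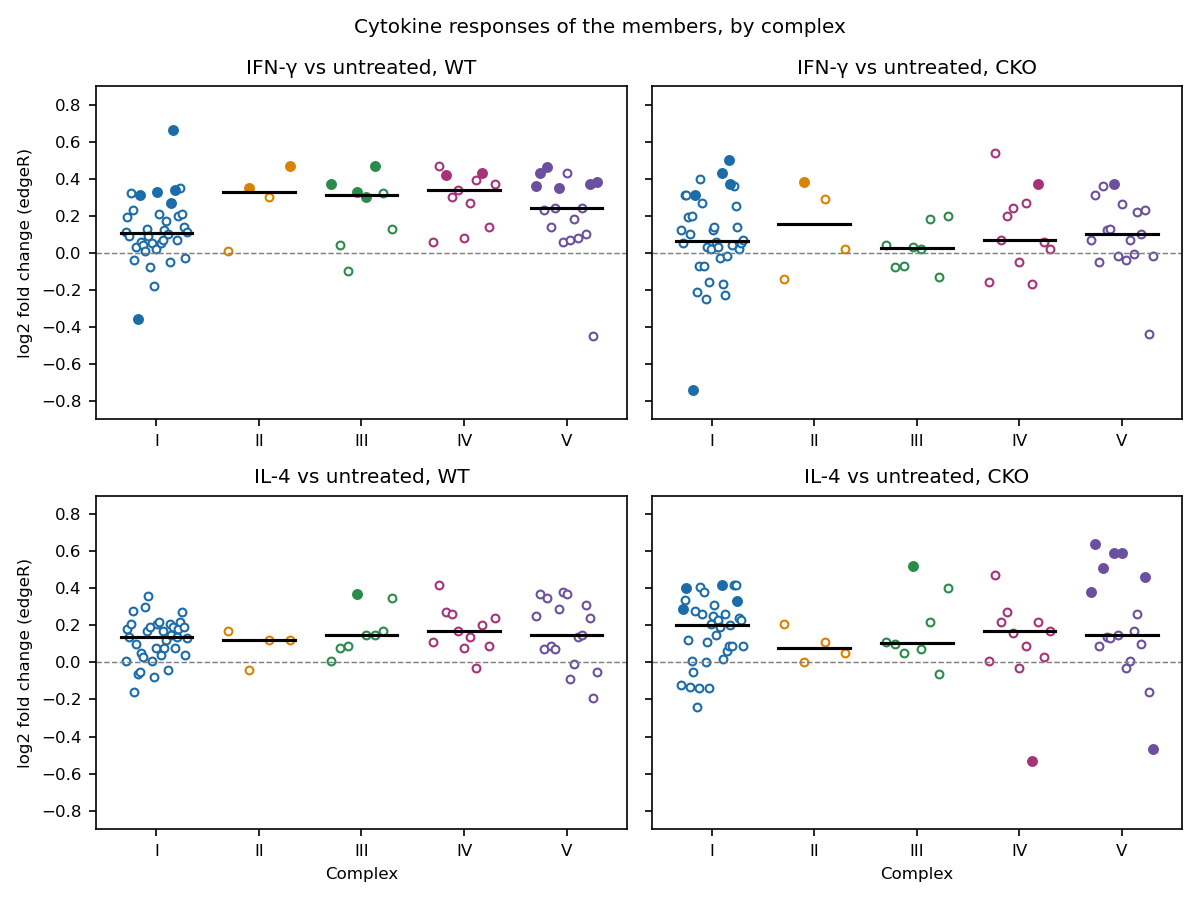
Log2 fold change (edgeR) of each member by complex, for IFN-γ and IL-4 against untreated cells in WT and CKO. Filled points have an adjusted p under 0.05, lines are medians over all members of the complex, and Cox6a2 and Cox7a1 lie outside the axis and are not drawn; in WT with IFN-γ the medians of complexes II to V lie between 0.24 and 0.34 and that of complex I at 0.10.

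Complex I, the entry point for electrons from NADH, changed in 6 of 36 members in WT. Ndufs3, a core subunit of the peripheral arm (chr2:90894634-90904827, GRCm38), stood at 34.1 and 36.2 CPM in untreated WT and at 54.3 and 57.0 with IFN-γ. In CKO libraries it stood at 38.7 and 35.7 untreated and at 53.6 and 51.7 with IFN-γ. All 4 IFN-γ libraries lay above all 4 untreated ones. The log2 fold changes were 0.66 ± 0.09 (SE; edgeR adjusted p = 0.00024) in WT and 0.50 ± 0.09 (adjusted p = 0.00178) in CKO, and neither call was lost when any 1 library of the comparison was left out. Ndufa5 and Ndufs4, an accessory subunit known from Leigh-like disease models, rose in both genotypes by 0.31 to 0.37. Ndufb5 rose in WT by 0.33, and Ndufc1 in CKO by 0.43.

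Ndufa4 went the other way. It stood at 84.4 and 76.1 CPM in untreated WT and at 65.3 and 60.1 with IFN-γ, and in CKO at 92.4 and 73.5 untreated and at 51.7 and 47.8 with IFN-γ. The IFN-γ and untreated libraries did not overlap in either genotype, and the CKO libraries with IFN-γ were the lowest of all 12. The fall was -0.36 ± 0.12 (edgeR adjusted p = 0.0426) in WT and -0.74 ± 0.12 (adjusted p = 0.000513) in CKO. The difference between these 2 responses was -0.38 ± 0.16, with an adjusted p of 0.342. The WT call was lost without any 1 of its 4 libraries, whereas the CKO call was not. AA467197, the mouse counterpart of human C15orf48, codes for a paralogue of the Ndufa4 protein that is known to take its place in complex IV during inflammation; it was chosen after its values were seen. It stood at 1.22 and 0.785 CPM in untreated WT and at 42.2 and 39.0 with IFN-γ, and at 0.683 and 1.04 against 37.6 and 50.4 CPM in CKO. That is a log2 fold change of 5.33 ± 0.23 (edgeR adjusted p = 7.67e-09) and 5.64 ± 0.23 (adjusted p = 4.26e-09). With IL-4, AA467197 reached 2.22 and 2.30 CPM in WT and 3.64 and 3.6 in CKO, while Ndufa4 stood at 77.1 to 80.7 CPM.

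Complex II, which oxidises succinate as part of the citric acid cycle, changed in its iron-sulfur subunit Sdhb in both genotypes. Sdhb stood at 105 and 112 CPM in untreated WT and 134 and 143 with IFN-γ, and at 116 and 115 against 149 and 150 CPM in CKO. The groups were apart in both genotypes, with log2 fold changes of 0.35 ± 0.09 (edgeR adjusted p = 0.0135) and 0.38 ± 0.09 (adjusted p = 0.00806). Sdhd, a membrane anchor of the complex, stood at 95.0 and 96.5 CPM in untreated WT and 118 and 147 with IFN-γ, but at 107 and 97.3 against 104 and 104 in CKO. It rose by 0.47 ± 0.11 in WT (edgeR adjusted p = 0.00688) and the CKO value was 0.02, not called. The interaction for Sdhd was -0.44 ± 0.15 with an adjusted p of 0.193.

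Complex III, which hands electrons from ubiquinol to cytochrome c, had 4 of 8 members higher with IFN-γ in WT: Uqcrc1, Uqcrc2, Uqcrfs1 and Uqcr10. In CKO none was called by edgeR, and none of the 8 had an unadjusted p under 0.05. Uqcrfs1, the Rieske iron-sulfur protein, stood at 58.1 and 54.4 CPM in untreated WT and 76.7 and 79.3 with IFN-γ, and at 53.9 and 51.7 against 60.1 and 59.7 CPM in CKO. WT rose by 0.47 ± 0.09 (edgeR adjusted p = 0.00185), also without any 1 library, and the CKO value was 0.18, which missed the threshold. The median over complex III was 0.31 in WT and 0.03 in CKO. The interaction was tested directly and did not pass for any member of the complex, the smallest adjusted p being 0.289 for Uqcr10.

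Complex IV reduces oxygen, and several of its small subunits come in tissue-specific pairs. In WT, Cox5b and Cox7b rose with IFN-γ by 0.42 ± 0.10 (edgeR adjusted p = 0.0100) and 0.43 ± 0.12 (adjusted p = 0.0208). Cox7b also rose in CKO, by 0.37 ± 0.12 (adjusted p = 0.0412). Cox6a2, the heart and muscle form, had 6 and 12 counts in untreated WT and 25 and 41 with IFN-γ, and 9 and 8 against 60 and 48 counts in CKO. Its fold change was 2.01 ± 0.43 (edgeR adjusted p = 0.00445) in WT and 2.83 ± 0.41 (adjusted p = 0.00027) in CKO, from a level of 0.210 to 0.409 CPM in the untreated libraries. All untreated libraries lay under the CPM of 1 in the level filter, so Cox6a2 became a member through cytokine-treated libraries. Its rises over untreated cells with either cytokine, which the counts of members include, are therefore partly set by that rule. Cox6a1, the form found in most tissues, stood at 89.1 to 131 CPM in WT and did not pass in either genotype. Cox7a1, also a muscle form, fell from 2.17 and 2.32 CPM to 0.745 and 1.51 in WT and from 1.40 and 1.44 to 0.564 and 0.669 in CKO, with folds of -0.97 ± 0.28 (edgeR adjusted p = 0.0250) and -1.20 ± 0.32 (adjusted p = 0.0155). DESeq2 did not call the WT fall. Of the Cox6a2 exon bases, 10.3% are shared with Itgad, and Itgad stood at 2.31 and 1.84 CPM untreated and at 1.70 and 2.34 with IFN-γ in WT, a difference that was not called.

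In complex V, 6 of 17 members rose in WT: Atp5a1, Atp5b, Atp5d, Atp5g1, Atp5o and Atp5sl. Atp5b (chr10:128083273-128090391, GRCm38) stood at 658 and 683 CPM in untreated WT and 853 and 958 with IFN-γ, a rise of 0.43 ± 0.11 (edgeR adjusted p = 0.0159). In CKO it stood at 457 and 568 untreated and 622 and 647 with IFN-γ, where the groups were also apart but the test was not passed. Atp5g1, a gene for the membrane-ring subunit c, was the complex V member called in both genotypes, at 0.35 ± 0.12 (edgeR adjusted p = 0.0479) and 0.37 ± 0.12 (adjusted p = 0.0320). Atp5o has 47.9% of its exon bases under other gene models, so its reads are uncertain.

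The WT and CKO responses rest on separate libraries. Of the 20 members that rose in WT, 7 (35%) also rose in CKO, and these were 87.5% of the 8 that rose there: Atp5g1, Cox6a2, Cox7b, Ndufa5, Ndufs3, Ndufs4 and Sdhb. Over all tested genes 12.4% rose in WT and 14.7% in CKO. Their overlap was not computed, so that of the members is not read as particular to them. Ndufa4 and Cox7a1 were the members that fell in both. The genotype by IFN-γ interaction called 0 members in edgeR and in DESeq2, against 2.72% of all genes (2.07% higher, 0.651% lower). At an unadjusted p under 0.05 there were 10 members in edgeR and 9 in DESeq2, against 13.1% of all genes in edgeR. The member median of the interaction was -0.09, against 0.02 over all genes. It was 0.03 without IFN-γ-treated WT library 2, and 2 members were called lower without untreated CKO library 2.

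**Figure D3:**
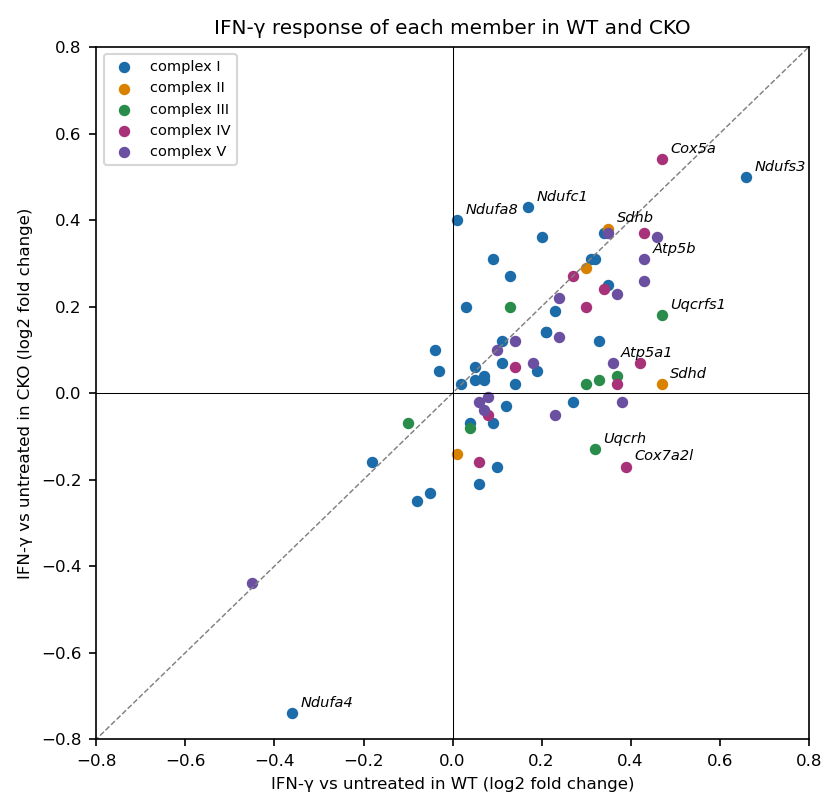
Log2 fold change with IFN-γ in WT (x axis) and CKO (y axis) for each member except Cox6a2 and Cox7a1, coloured by complex, with the dashed line marking equal responses. Ndufs3 and Sdhb lie near the line, Sdhd and Uqcrfs1 lie below it at 0.47 on the x axis, and Ndufa4 lies lowest.

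The counts depended on single libraries. Of the 22 WT calls, those on Ndufs3 and Uqcrfs1 held without any 1 library, and 8 held in none of these fits. Of the 10 CKO calls, those on Ndufs3, Ndufa4 and Cox6a2 held throughout. The rise of Sdhd in WT was lost without untreated WT library 1 or IFN-γ library 2, as were those of Cox5b and Sdhb, and the rise of Cox6a2 in WT was lost without untreated WT library 1. IFN-γ-treated WT library 2 was above library 1 for 69 of 78 members, by a median log2 of 0.19, whereas over all genes the share was 50.1% and the median 0.00. Without that library 5 members were called higher and the member median was 0.07. With the other libraries left out in turn, 2 were called without untreated WT library 1, 7 without untreated library 2 and 20 without IFN-γ library 1. With only the compared groups in the fit, 3 were called higher in CKO. In CKO the count was 4 without untreated library 1, 14, with 7 lower, without untreated library 2 and 2 without either IFN-γ library. Scaling to library totals instead of TMM moved the all-gene median to -0.16 in CKO, and then 2 members were called higher and 7 lower there with a member median of -0.10, so the direction of the CKO median rests on the scaling. In WT that scaling left 10 higher and 2 lower.

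With IL-4, 1 of 78 members (1.28%) rose in WT, against 6.64% of all genes, and 0 fell in edgeR and DESeq2, against 5.59% (12.2% in either direction). At an unadjusted p under 0.05, 11 members differed, against 24% of all genes. Of the 78 values 66 were positive, and the member median was 0.15. In CKO, 12 members (15.4%) rose and 2 fell, against 11.2% and 11.3% of all genes (22.5% in either direction), with a median of 0.17. The member called in both genotypes was Uqcrc1, a core protein of complex III (chr9:108936633-108949623, GRCm38). It stood at 127 and 120 CPM in untreated WT and 157 and 161 with IL-4, and at 107 and 115 against 152 and 167 CPM in CKO. All 4 IL-4 libraries lay above all 4 untreated ones, with log2 fold changes of 0.37 ± 0.09 (edgeR adjusted p = 0.0192) and 0.52 ± 0.09 (adjusted p = 0.00173). The WT call was lost without any 1 of its libraries, and the CKO call was not.

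In CKO, complex V held 6 of the 12 rises with IL-4: Atp5a1, Atp5b, Atp5d, Atp5g1, Atp5g3 and Atp5o. Atp5b stood at 457 and 568 CPM untreated and 761 and 833 with IL-4, a rise of 0.64 ± 0.11 (edgeR adjusted p = 0.00242). The 3 genes for the identical mature subunit c differed in their calls: Atp5g1 rose by 0.59 ± 0.12 (adjusted p = 0.00392) and Atp5g3 by 0.59 ± 0.19 (adjusted p = 0.0443), while Atp5g2 stood at 57.6 and 58.9 CPM untreated and 62.9 and 66.3 with IL-4 and was not called. Complex I contributed Ndufa10, Ndufa12, Ndufc1 and Ndufs8, with rises of 0.29 to 0.42. Cox6a2 rose by 2.17 ± 0.42 (edgeR adjusted p = 0.00403), from 9 and 8 to 41 and 39 counts. With only the compared groups in the fit, 1 member (Cox6a2) was called higher and 0 lower in CKO in edgeR, 16 members having an unadjusted p under 0.05, and the calls on Atp5b, Atp5g1 and Uqcrc1 were lost. In WT the same setting called 10. With all groups in the fit, the CKO calls on Atp5b, Atp5g1, Uqcrc1 and Cox6a2 held without any 1 library, whereas that on Atp5g3 held in 1 of 4 such fits, the one without untreated library 2. Itgad, which shares exon bases with Cox6a2, rose with IL-4 too, from 2.66 and 1.36 to 14.7 and 9.64 CPM in CKO, and its part in the Cox6a2 counts was not tested.

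The 2 members that fell with IL-4 in CKO were Atp5sl and Cox7a2l. Cox7a2l, which helps complexes III and IV join into supercomplexes, stood at 172 and 126 CPM in untreated CKO and 113 and 93.5 with IL-4, a fall of -0.53 ± 0.14 (edgeR adjusted p = 0.0178). The untreated libraries lay above those with IL-4, and library 1, the one that stood apart, was the highest of all 12. Without it, 5 members were called higher and 0 lower with IL-4 in CKO, and neither Cox7a2l nor Atp5sl was called. Without IL-4-treated CKO library 2 there were 4 and 0. The genotype by IL-4 interaction called 0 members in edgeR and DESeq2, against 0.0368% of all genes (0.0246% higher, 0.0123% lower). At an unadjusted p under 0.05 there were 3 members in edgeR, against 6.02% of all genes, and 1 in DESeq2, and the smallest adjusted p in edgeR was 0.773. Without untreated CKO library 2, 1 member was called lower.

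Set directly against IL-4, IFN-γ gave 8 higher members (10.3%) and 0 lower in WT, against 14.2% and 13.8% of all genes (28% in either direction), and 3 higher and 7 lower in CKO, against 16.3% and 13.7% (29.9%). DESeq2 gave 8 and 0 in WT, where edgeR had 11 members at an unadjusted p under 0.05. Ndufs3, Sdhb and Atp5sl were called higher with IFN-γ in both genotypes. In CKO the 7 lower members were Atp5a1, Atp5b, Cox7a1, Ndufa4, Ndufs1, Sdha and Uqcrc1. Sdha, the flavoprotein that binds succinate, stood at 251 and 243 CPM with IFN-γ and 332 and 300 with IL-4 in CKO, a difference of -0.35 ± 0.09 (edgeR adjusted p = 0.0107), while its iron-sulfur partner Sdhb stood at 149 and 150 against 122 and 108, a difference of 0.38 ± 0.09 (adjusted p = 0.00654). Both are subunits of complex II, and they differed in opposite directions between these groups. Ndufs1, the largest complex I subunit, stood at 77.9 and 78.5 CPM with IFN-γ and 107 and 113 with IL-4 in CKO, a difference of -0.49 ± 0.10 (edgeR adjusted p = 0.00210). The calls on Ndufs1, Ndufa4 and Uqcrc1 in CKO and on Ndufs3 in WT held without any 1 library, and that on Sdha was lost without either CKO IFN-γ library or IL-4 library 1. The CKO call on Sdhb was lost without CKO IFN-γ library 1, without CKO IL-4 library 2 and with library totals in place of TMM. Without IFN-γ-treated WT library 2 the WT counts became 2 higher and 7 lower, and 1 member was called higher without WT IL-4 library 1 and 2 without library 2. In CKO they were 0 higher and 3 lower without IFN-γ library 1, 3 and 4 without IFN-γ library 2, and 1 and 5 without IL-4 library 2. Scaled to library totals, the CKO counts were 1 higher and 22 lower, with the all-gene median at -0.17.

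**Figure D4:**
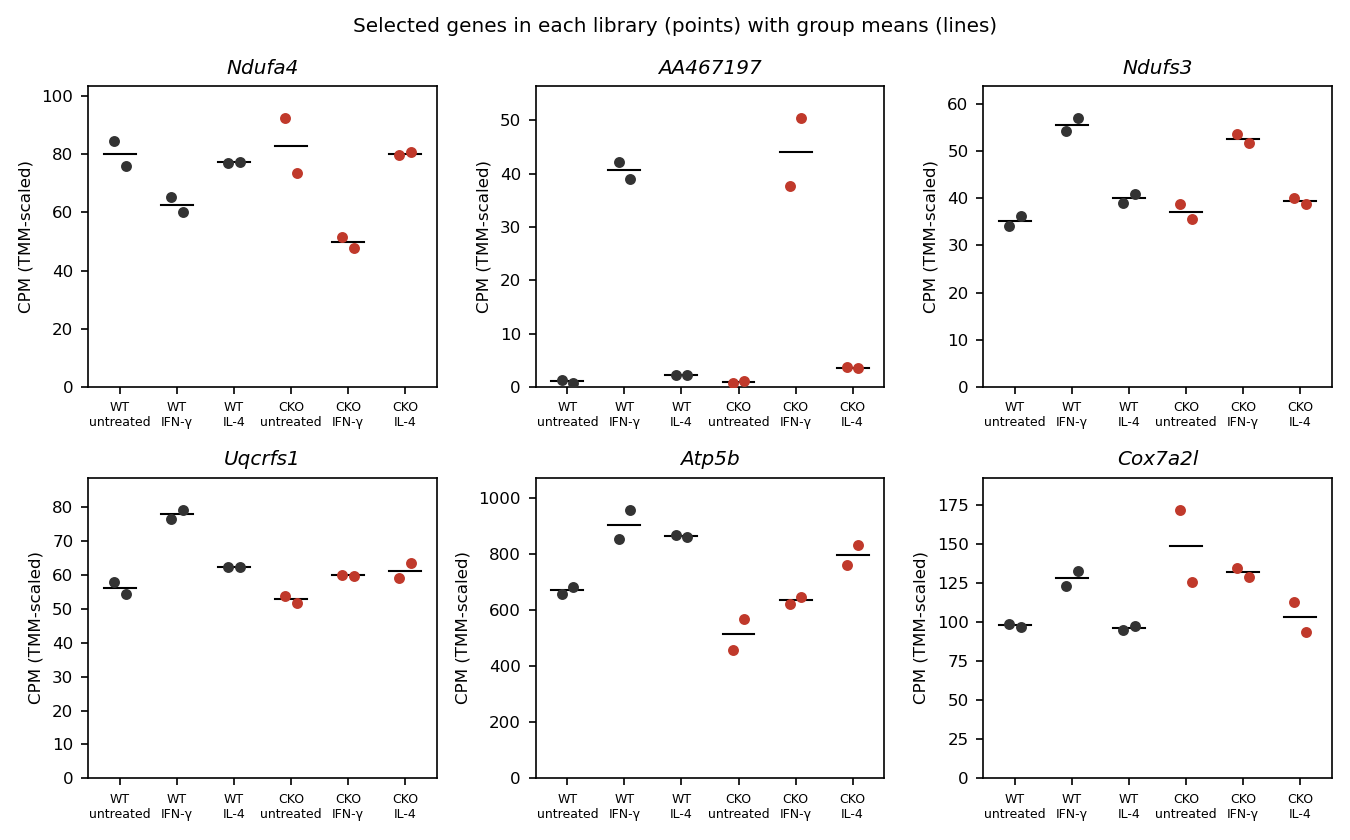
CPM (TMM-scaled, linear axes from 0) of Ndufa4, its paralogue AA467197, Ndufs3, Uqcrfs1, Atp5b and Cox7a2l in each library, with points for libraries and lines for group means. Ndufa4 is lowest and AA467197 highest in the IFN-γ groups of both genotypes, and Cox7a2l is highest in untreated CKO library 1 at 172 CPM.

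The second question was whether genotype changed the chain. In untreated cells, 2 members (2.56%) were higher and 3 (3.85%) lower in CKO, against 8.6% and 9.37% of all genes (18% in either direction), with a member median of -0.04. Atp5sl stood at 9.19 and 8.83 CPM in WT and 15 and 13.6 in CKO, a difference of 0.66 ± 0.13 (edgeR adjusted p = 0.00543). Cox7a2l was the other higher member, at 0.60 ± 0.14 (adjusted p = 0.0130). Ndufa12, Ndufa5 and Atp5b were lower, by -0.46, -0.40 and -0.39. Ndufa12 stood at 44.7 and 43.8 CPM in WT and 30.2 and 34.3 in CKO, with no overlap. Without untreated CKO library 1 the counts were 1 higher and 0 lower, and without library 2 they were 4 and 6. Without untreated WT library 1 they were 1 and 0. Without WT library 2, and with only the compared groups in the fit, both were 0 in edgeR, with 6 members at an unadjusted p under 0.05 in each.

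With IFN-γ, 0 members were higher and 13 (16.7%) lower in CKO than in WT, against 10.4% and 8.01% of all genes (18.4% in either direction), in edgeR, and DESeq2 gave the same counts. At an unadjusted p under 0.05 there were 21 members (26.9%), against 32.4% of all genes. The members that were lower included Atp5a1, Atp5b, Atp5c1 and Atp5o of complex V, Uqcr10, Uqcrc1 and Uqcrfs1 of complex III, Sdhd of complex II, and Ndufa10, Ndufa12, Ndufa5 and Ndufs1 of complex I. No member of complex IV was called, with 2 of 13 at an unadjusted p under 0.05 in edgeR. The members' median was -0.10, against 0.02 over all genes. Atp5b stood at 853 and 958 CPM in WT and 622 and 647 in CKO with IFN-γ, a difference of -0.51 ± 0.11 (edgeR adjusted p = 0.00969). Uqcrc1 stood at 161 and 150 CPM in WT and 112 and 115 in CKO, and was lower by -0.46 ± 0.09 (adjusted p = 0.00462). For both genes every CKO library lay below every WT library.

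This count too rested on single libraries. Without IFN-γ-treated WT library 2 it became 3 higher and 2 lower, with a member median of 0.01. It was 13 lower without WT library 1 and 1 lower without either CKO library. The lower calls that held without WT library 2 were those on Atp5a1 and Uqcrc1. That on Atp5a1 was lost without CKO library 2, and that on Uqcrc1 without CKO library 1. No call of this comparison held in every such fit. With all libraries in the fit, Atp5a1 stood at 756 and 792 CPM in WT and 569 and 574 in CKO (-0.44 ± 0.09, edgeR adjusted p = 0.00455). Without a filter on low counts 7 were lower, and with a filter at a mean of 5 CPM, 9 of 75. The IFN-γ-treated CKO libraries had neutrophil marker sums of 496 and 507 CPM against 129 and 138 in WT. Monocyte marker sums were 303 and 315 against 147 and 189, and dendritic cell marker sums 7.93 and 9.63 against 49.7 and 58.1. The part of these cells in the genotype differences with IFN-γ was not tested.

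With IL-4, 0 members differed between the genotypes in edgeR and in DESeq2, against 1.41% of all genes called higher and 1.55% lower (2.96% in either direction), with 2 members at an unadjusted p under 0.05 in edgeR and 2 in DESeq2, where 14.1% of all genes passed in edgeR. The smallest adjusted p was 0.296, for Ndufa12, at 54.0 and 48.4 CPM in WT and 40.5 and 44.5 in CKO. Nnt, the inner-membrane transhydrogenase that couples the proton gradient to NADPH, is not a subunit of the chain and was chosen after its values were seen. It stood at 45.2 and 44.3 CPM in untreated WT and 94.3 and 91.3 in untreated CKO, and was higher in CKO in all 3 treatments. The labels name no strain, so for Nnt the CKO allele and a difference in strain background between WT and CKO cannot be told apart.

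The summed level of the members rose where their median rose. It was 6170 ± 218 CPM (SD, n = 2) in untreated WT, 7334 ± 674 with IFN-γ and 7022 ± 0.496 with IL-4. In CKO it was 5941 ± 45.5 untreated, 6327 ± 7.62 with IFN-γ and 6934 ± 110 with IL-4. As a share of all counts, without TMM scaling, the members made up 0.610% and 0.650% in untreated WT and 0.671% and 0.753% with IFN-γ. In CKO the share was 0.616% and 0.633% untreated and 0.590% and 0.597% with IFN-γ, so the CKO sum with IFN-γ lay above untreated cells with TMM and below them without it.

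The 13 chain genes encoded by mtDNA did not follow the nuclear sum under IFN-γ. Their sum was 13422 and 13752 CPM in untreated WT and 10867 and 13042 with IFN-γ, and 11360 and 12931 CPM in untreated CKO and 11156 and 11245 with IFN-γ. With IL-4 it was 14393 to 14626 in WT and 14096 to 14374 in CKO. In both genotypes the IFN-γ libraries lay below the untreated ones, and the sums themselves were not tested. In CKO that order rested on mt-Co1: without it the other 12 genes summed to 4500 and 6626 CPM untreated and to 4891 and 5021 with IFN-γ, which overlap, whereas in WT they summed to 6668 and 7021 against 5219 and 5993. Among single genes, mt-Nd3, a complex I subunit, was the one of 13 called lower in WT, from 136 and 134 to 91.1 and 101 CPM (-0.49 ± 0.09, edgeR adjusted p = 0.00182). In CKO, mt-Nd3 fell by -0.88 ± 0.09 (edgeR adjusted p = 1.92e-05), from 140 and 138 to 72.8 and 78.2 CPM, and mt-Co3 of complex IV by -0.43 ± 0.13 (adjusted p = 0.0300). The counts called lower were thus 1 of 13 in WT and 2 of 13 in CKO, against 11.8% and 11.9% of all genes. In the fit reported here, none of the 13 was called higher by edgeR in any of the 11 comparisons. Other settings did call some with IL-4 in CKO: 10 without a filter on low counts, 1 with a filter at a mean of 5 CPM and 2 in DESeq2. With the library number as a block 3 were called there, and 1 with that block set within genotype. Some were also called with IL-4 in CKO when either untreated CKO library was left out, more of them without library 2. Without a filter, 1 was also called higher with IFN-γ in CKO and 1 with IL-4 in WT. The list median with IFN-γ was -0.26 in WT and -0.05 in CKO. The CKO values turn on the untreated library that stood apart: without untreated CKO library 1, 5 of the 13 were called lower with IFN-γ, and without untreated CKO library 2, 7 were called higher and 2 lower. The calls on mt-Nd3 held without any 1 library, and that on mt-Co3 held in 1 of 4 such fits, the one without untreated CKO library 2. As a share of all counts, the 13 genes made up 1.36% and 1.41% in untreated WT and 1.06% and 1.26% with IFN-γ, and 1.18% and 1.37% in untreated CKO against 1.04% and 1.06%.

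**Figure D5:**
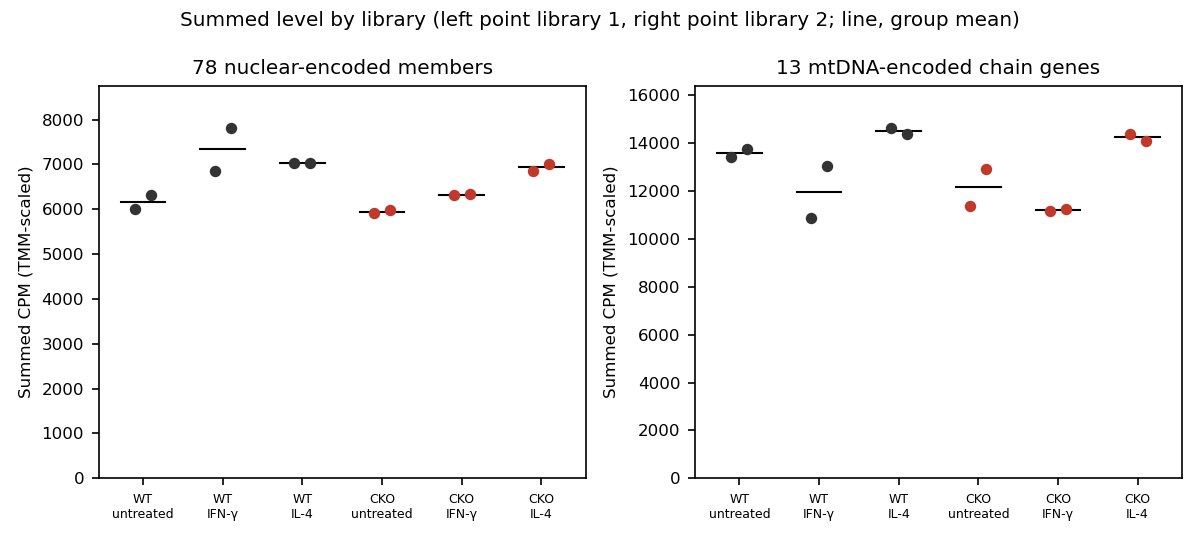
Summed CPM (TMM-scaled, axes from 0) of the 78 nuclear-encoded members (left) and of the 13 mtDNA-encoded chain genes (right) in each library, with lines for group means. With IFN-γ the nuclear sum lies above and the mtDNA sum below the untreated libraries of the same genotype, the latter in CKO only when mt-Co1 is counted, and both sums lie above untreated with IL-4.

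Other genes of the pathway were read from lists of related genes. Of 6 tested chain genes outside the naming rule, cytochrome c (Cycs) and cytochrome c1 (Cyc1, of complex III) rose with IFN-γ in both genotypes. Of all genes, 12.4% rose in WT and 14.7% in CKO. Cycs stood at 68.9 and 69.2 CPM in untreated WT and 115 and 145 with IFN-γ, and at 35.5 and 47.4 against 103 and 116 CPM in CKO. The rises were 0.92 ± 0.16 (edgeR adjusted p = 0.00122) and 1.40 ± 0.16 (adjusted p = 5.22e-05). Both Cycs calls held without any 1 library. Cyc1 rose by 0.61 and 0.50, and each of these calls held in 1 of 4 such fits, those without IFN-γ-treated WT library 1 and without untreated CKO library 2. Atpif1, the inhibitor of ATP synthase, fell with IFN-γ in CKO by -0.50 ± 0.09 (edgeR adjusted p = 0.000943), where 11.9% of all genes fell. Cycs and Cyc1 were also called higher with IL-4 in CKO, against 11.2% of all genes, but not with only the compared groups in the fit. In untreated cells Cycs was called lower in CKO than in WT, against 9.37% of all genes. None of the 6 was called in the genotype by IFN-γ interaction.

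Of 47 tested assembly factors, which build the complexes without remaining in them, 4 rose and 2 fell with IFN-γ in WT, where 12.4% and 11.8% of all genes did, and 4 rose and 4 fell in CKO, where 14.7% and 11.9% did. Coa5, a complex IV assembly factor, stood at 121 and 114 CPM in untreated WT and 335 and 359 with IFN-γ, and at 107 and 104 against 276 and 257 CPM in CKO. The rise was 1.56 ± 0.09 (edgeR adjusted p = 1.25e-07) in WT and 1.34 ± 0.09 (adjusted p = 4.01e-07) in CKO. Sco1, a copper chaperone of complex IV, stood at 14.3 and 14.8 CPM in untreated WT and 22.4 and 24.2 with IFN-γ, but at 12.1 and 11.7 against 11.9 and 12.9 CPM in CKO. With IFN-γ it was lower in CKO than in WT by -0.91 ± 0.11 (edgeR adjusted p = 0.000171). The genotype by IFN-γ interaction called none of the 47 assembly factors in edgeR, Sco1 included, against 2.72% of all genes. With IL-4, 1 assembly factor, Tmem126b, rose in WT and 7 in CKO, against 6.64% and 11.2% of all genes, Cox10, the haem A farnesyltransferase, among the latter at 0.80 ± 0.15 (adjusted p = 0.00287). Of the 47, 3 were called higher without untreated CKO library 1, 2 without IL-4-treated CKO library 2 and 3 in DESeq2. With only the compared groups in the fit none was called, Cox10 included. The calls given here with values for Coa5, Sco1 and Cox10 held in the fits that left out 1 library. Scaled to library totals, the CKO counts with IFN-γ were 2 higher and 8 lower, and in single-library fits they ran from 2 higher and 1 lower, without IFN-γ-treated CKO library 2, to 6 and 5, without untreated CKO library 2. The WT count of 4 higher fell to 2 without untreated WT library 1 or IFN-γ library 2.

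Of 18 tested regulators of mitochondrial biogenesis, 3 rose and 1 (Epas1) fell with IFN-γ in WT, and 4 rose and 2 (Epas1 and Polg) fell in CKO, against 12.4% and 11.8% of all genes in WT and 14.7% and 11.9% in CKO. With library totals in place of TMM the CKO counts were 2 higher and 6 lower. Ppargc1b, the coactivator PGC-1β, stood at 3.28 and 5.25 CPM in untreated WT, 15 and 14.1 with IFN-γ and 7.48 and 6.65 with IL-4. In CKO it stood at 1.71 and 3.09 untreated, 5.53 and 5.61 with IFN-γ and 13 and 8.50 with IL-4. It rose with IFN-γ by 1.77 ± 0.28 (edgeR adjusted p = 0.000533) in WT and 1.19 ± 0.30 (adjusted p = 0.0117) in CKO, and with IL-4 by 2.14 ± 0.29 (adjusted p = 0.000362) in CKO. The CKO rise with IFN-γ was lost without untreated CKO library 1 or either CKO IFN-γ library, and the other calls held. The count of 4 regulators in CKO was 1 without either CKO IFN-γ library and 2 without untreated CKO library 1, and that of 3 in WT was 5 without IFN-γ library 2. Hif1a, which in macrophages promotes glycolysis, stood at 145 and 152 CPM in untreated WT and 261 and 332 with IFN-γ, a rise of 1.0 ± 0.11 (edgeR adjusted p = 3.56e-05), and rose in CKO by 0.57 ± 0.11 (adjusted p = 0.00250). None of the 18 regulators, Hif1a and Ppargc1b included, was called in the genotype by IFN-γ interaction in edgeR, against 2.72% of all genes. The genes for the promoter-binding factors named above, Nrf1, Gabpa and Yy1, and Tfam, the mtDNA transcription factor, passed in none of the 11 comparisons. With IFN-γ, Nrf1 stood at 38.1 and 36.3 CPM in WT and 30.4 and 30.4 in CKO.

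Among 16 tested carriers and uncoupling genes, 4 rose with IFN-γ in WT and 3 in CKO, against 12.4% and 14.7% of all genes, and none was called lower. Gpd2, the glycerol-phosphate dehydrogenase that feeds electrons to ubiquinone, rose by 0.79 ± 0.13 (edgeR adjusted p = 0.000611) in WT and 1.39 ± 0.13 (adjusted p = 6.95e-06) in CKO. None of the 16, Gpd2 included, was called in the genotype by IFN-γ interaction in edgeR, against 2.72% of all genes. With IL-4, Etfa and Etfb, which carry electrons from fatty acid oxidation, rose in CKO by 0.58 ± 0.10 (adjusted p = 0.00238) and 0.63 ± 0.15 (adjusted p = 0.0123), and 5 genes of this list rose there and 1 (Slc25a11) fell, against 11.2% and 11.3% of all genes. The count higher was 2 without untreated CKO library 1 and 2 without IL-4-treated CKO library 2. The Etfb call was lost without either of these libraries, and with only the compared groups in the fit none of the 16 was called higher, Etfa and Etfb included. With library totals in place of TMM, 4 carriers were called lower with IFN-γ in CKO.

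The 5 genes under the level filter were isoforms of complex IV known from other tissues. Cox7b2, Cox8b and Cox8c had 0 counts in all 12 libraries. Cox6b2 had 25 counts in all. Cox4i2, the hypoxia and lung form of Cox4i1, had 47 counts in all, and stood at 0.663 and 0.684 CPM in IFN-γ-treated WT and at 0.171 or less elsewhere. Cox4i2 was among the tested genes and, on these few counts, was called higher with IFN-γ in WT (2.90 ± 0.71, edgeR adjusted p = 0.0141). It was also called higher there than with IL-4 (3.94 ± 0.86, adjusted p = 0.00649), and lower in CKO than in WT with IFN-γ (-2.79 ± 0.71, adjusted p = 0.0241). Its partner Cox4i1 stood at 216 to 260 CPM across the libraries, called in none of the 11 comparisons. Just inside the filter, Cox6a2 and Cox7a1 averaged 0.981 and 1.46 CPM.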

How the data were processed

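RNA-seq counts of 12 libraries were analysed. The deposited values are whole-number gene counts, not normalized by the authors. The submitters' processing notes list HTSeq 0.6.1, TopHat2 2.0.13, CASAVA 1.8.2 and Picard 1.97, and the builds mm10 and GRCh38, without roles. The strand setting and annotation release were not given in the sources used here, and overlapping genes are therefore uncertain. Of the members, 28 members share exon bases with another gene. Counts were tested with edgeR 4.0.16 in R 4.3.3 (quasi-likelihood F test, robust, TMM scaling, filterByExpr) in 1 fit of 6 group means with 6 residual degrees of freedom, with Benjamini-Hochberg adjustment at 0.05 over all 16292 tested genes in each of 11 comparisons, and the script was tested on simulated data. DESeq2 1.42.0 was an alternative. The SE was approximated from the log2 fold change and its F statistic. CPM values are TMM-scaled unless said otherwise, and marker sums use library totals. Exon lengths and positions come from GENCODE M21 (GRCm38), where 54 of 78 member identifiers matched with version and 78 without.

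Members named in every library were up to 4 called members with the largest change per comparison, the highest and most variable of each complex, and the paralogous subunit sets. From each list of related genes up to 3 with the smallest adjusted p per comparison were eligible. Itgad, and Nrf1, Gabpa, Yy1 and Tfam, were added for overlap or promoter motifs. The members, lists and this rule were chosen with earlier results of these data known, and other members are named after their values were seen. Alternatives were other scalings and filters, only the compared groups, the library number as a block, and each library left out. The values of 1 member are counted but not reported here.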

Additional observations from a re-analysis of the deposited data

How the results depend on the processing

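No member called in any comparison changed sign under any alternative, 0 of 83 calls. Of these, 31 held under all alternatives that kept every compared library, 13 held without any 1 library, and 18 held in none of those fits. A group reduced to 1 library was given the spread of the remaining groups, and the cause of the changes in counts below was not tested. The numbers are members called.

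DESeq2 gave 3 higher with IL-4 in WT and 1 lower with IFN-γ in WT, and its size factors within edgeR also 1 lower there. Library totals without TMM gave, with IFN-γ, 10 higher in WT and 2 higher and 7 lower in CKO, against IL-4 in CKO 1 higher and 22 lower, and with IL-4 in WT 0 higher (edgeR, 4 at an unadjusted p under 0.05). A filter at a mean CPM of 5, which tested 75 members, gave 1 lower with IFN-γ in each genotype. No filter gave 5 higher for IFN-γ against IL-4 in WT, 3 higher with IL-4 in WT and 7 lower in CKO against WT with IFN-γ. Only the compared groups gave 0 higher and 0 lower for untreated CKO against WT, 3 higher with IFN-γ in CKO, 0 lower with IFN-γ in WT, 10 higher with IL-4 in WT, 1 higher and 0 lower with IL-4 in CKO, and 1 lower for IFN-γ against IL-4 in WT.

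Titles carry the number with the genotype. Deviations from group means correlated between libraries of the same number from 0.1 to 0.431 within a genotype and from -0.00546 to 0.256 across genotypes, and with 2 numbers per genotype, and no label that says what a number shares, they were not treated as pairs. The replicate block gave 29 higher with IFN-γ in WT, 14 higher with IFN-γ in CKO, 3 higher with IL-4 in WT, 5 lower in untreated CKO against WT and 1 lower for IFN-γ against IL-4 in WT. The replicate block within genotype gave 5 higher for IFN-γ against IL-4 in CKO and 3 lower in WT, 17 higher with IFN-γ in CKO, 30 in WT, 23 higher with IL-4 in CKO, 10 in WT, and 1 lower in the genotype by IFN-γ interaction. Estimating the spread without untreated CKO library 1, an alternative chosen after seeing the data, gave 3 higher with IL-4 in WT, and for IFN-γ against IL-4 11 lower in CKO and 1 in WT.

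Without 1 library at a time, higher and lower calls ranged from 0 to 4 and 0 to 6 in untreated CKO against WT, 0 to 3 and 1 to 13 with IFN-γ and 0 to 0 in both directions with IL-4. With IFN-γ they ranged from 2 to 20 and 0 to 1 in WT and from 2 to 14 and 1 to 7 in CKO. With IL-4 they ranged from 0 to 0 in both directions in WT and from 4 to 17 and 0 to 3 in CKO. For IFN-γ against IL-4 they ranged from 1 to 7 and 0 to 7 in WT and from 0 to 4 and 3 to 6 in CKO. The interactions ranged from 0 to 2 lower for IFN-γ and 0 to 1 lower for IL-4, with 0 higher. Calls on Cox6a2 rest on 6 to 60 counts per library.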
